A study of Rattus rattus with 24 samples.

Results

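The report covers rat oligodendrocyte precursor cell (OPC) cultures that differentiated in the presence of quetiapine, and compares those kept with the drug for 96 hrs with those kept for 48 hrs. Members were the 6 arrays labelled quetiapine at 1 μM, 3 at 96 hrs and 3 at 48 hrs, of 24 arrays in all. The other 18 arrays were from T3 plus quetiapine, T3 (triiodothyronine, at 45 nM) and vehicle control cultures at the same times, with 3 arrays in each of the 8 groups. OPCs were taken from the cortex of neonatal rat pups, selected magnetically for the surface antigen A2B5, expanded with the mitogen PDGF-AA and then moved to differentiation medium with the compounds. All groups, controls included, carried the DMSO vehicle and a B27 supplement that contains a little T3. Medium and compounds were renewed at 48 hrs, so the 96 hr cultures differ from the 48 hr cultures in a medium change as well as in time, and these cannot be told apart. The series design states that each biological replicate gave a sample of every condition at both times. Arrays with the same replicate number are called preparation 1, 2 or 3 here. The labels do not say whether such arrays came from 1 cell isolation, or from which wells.

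Quetiapine is an atypical antipsychotic drug that binds receptors for serotonin, dopamine, histamine and noradrenaline. OPCs are proliferating glia that leave the cell cycle, lose receptors such as PDGFRα, and become oligodendrocytes, the cells that wrap axons in myelin. Differentiation runs in stages. Enzymes and structural proteins such as CNP and MBP appear early, while proteins of the outer myelin surface and of compaction, such as MOG, MOBP and OPALIN, appear late.

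Expression is given as log2 values of the arrays after the authors' normalization, and a change with time is the mean log2 value at 96 hrs minus the mean at 48 hrs. A probe set, which is the group of array probes that reports a transcript, was called higher or lower where limma gave a Benjamini-Hochberg adjusted p under 0.05 over all 31042 probe sets tested and the fold change was over 1.5. The median log2 value of the 6 quetiapine arrays lay between 6.43 and 6.48 and the highest value between 14.2 and 14.4. Arrays of the same group correlated with r of 0.990 to 0.996 over the probe sets, although genes are not independent of each other. The signal of the 3′ probe set of beta-actin exceeded that of the 5′ probe set by 0.601 to 0.723 at 96 hrs and by 0.611 to 0.647 at 48 hrs on the log2 scale, and for Gapdh the difference was −0.113 to −0.0726 at 96 hrs and −0.116 to −0.0316 at 48 hrs. The number of arrays limits the precision. The deposited values carry no detection call, so for genes at or below the array median at 48 hrs the change is a difference of log2 values and no fold is given.

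With quetiapine, 712 probe sets (2.29% of those tested) were higher at 96 hrs and 207 (0.667%) were lower. Of these 919, 784 had 3 values at 96 hrs that did not overlap the 3 at 48 hrs. The share without overlap over all probe sets was not counted, so the 784 are not read as added support for the calls. The genes named for the greatest rises and falls were chosen from such probe sets, so in them the lack of overlap adds no support. Because each culture was measured in bulk, fewer cells of a type and less RNA per cell cannot be told apart. Counted as genes, each by its probe set of highest mean value, 418 of 14217 (2.94%) were higher and 124 (0.872%) were lower, and the median change over all genes was −0.02. These shares of higher and lower genes are the background for every list count below. Hprt1, a purine salvage gene often used as a reference, had a change of −0.20 (adjusted p = 0.143). The same comparison gave 879 higher genes (6.18%) and 919 lower (6.46%) with T3 plus quetiapine, 564 higher (3.97%) and 368 lower (2.59%) with T3, and 280 higher (1.97%) and 14 lower (0.0985%) in control. These 4 comparisons share no arrays, but they share the 3 preparations. The quetiapine count depended on preparation 2: without its arrays in any group 258 probe sets were called, 248 of them among the 919, against 1211 without preparation 1 and 1143 without preparation 3. With a single quetiapine array left out, the count ran between 643 and 1056.

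Of 13 measured myelin protein genes, 7 rose and none fell, with a median change of 0.91, against 0.01 in control. With T3 plus quetiapine 8 rose, with T3 7 rose and in control 2 rose. Mobp, which encodes a basic protein of compact myelin, stood at 12.25, 13.32 and 13.15 in preparations 1, 2 and 3 at 96 hrs, against 5.16, 4.96 and 7.29 at 48 hrs. The change was 7.10 (SE 0.536, adjusted p = 1.48e-07), with the preparation 1 and 2 arrays at 48 hrs below the array median. Mobp also rose in control, by 5.29, and the difference between the changes with quetiapine and in control was 1.82 (adjusted p = 0.338).

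Mog encodes a glycoprotein of the outermost myelin lamella. It stood at 9.57, 10.65 and 10.72 at 96 hrs, against 6.42, 6.23 and 6.83 at 48 hrs. It rose by 3.82 (SE 0.352, adjusted p = 1.33e-06). Mag, which encodes an adhesion protein at the inner face of myelin, was already high at 48 hrs, with 13.32, 13.13 and 13.13 at 96 hrs and 11.99, 12.17 and 12.69 at 48 hrs. Its change was 0.91 (SE 0.142, adjusted p = 0.000441), and the arrays did not overlap.

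**Figure D1:**
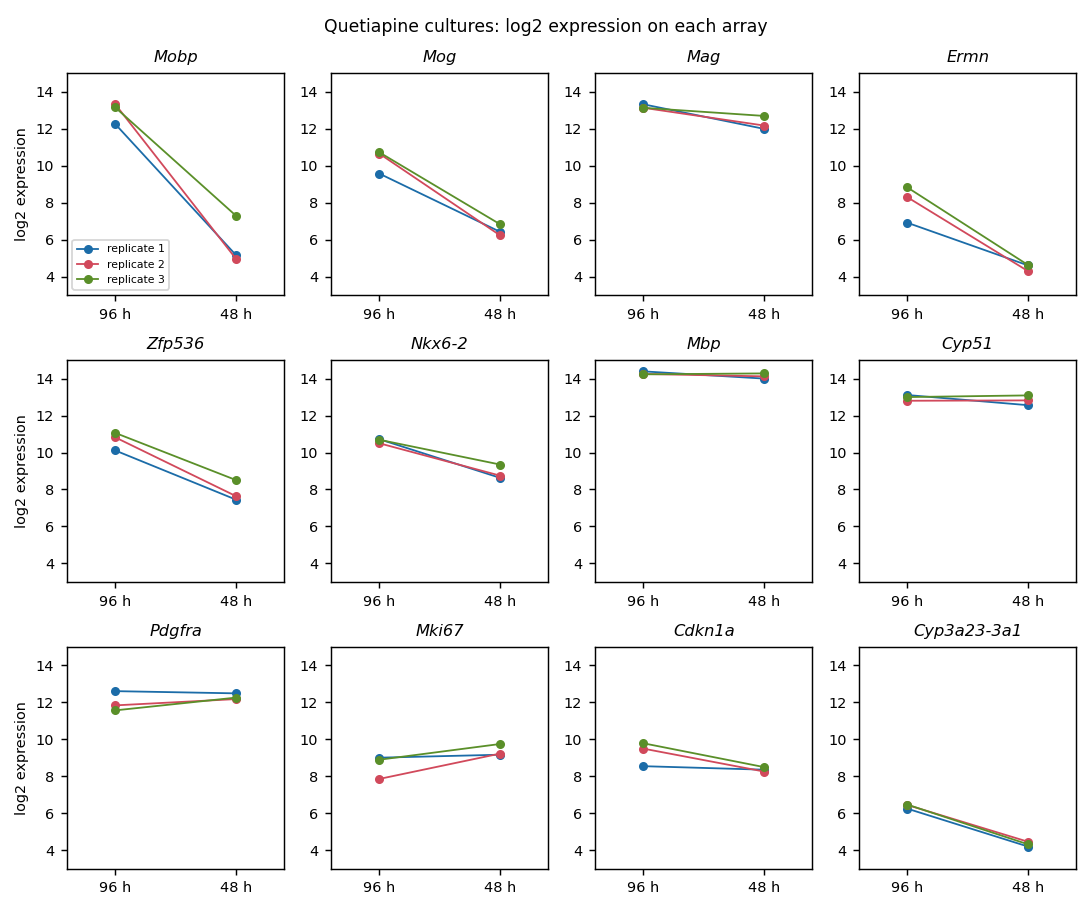
Log2 expression of selected genes in the 6 quetiapine arrays, with 96 hrs left of 48 hrs and a line joining the arrays of each preparation. Mobp lay between 12.25 and 13.32 at 96 hrs and between 4.96 and 7.29 at 48 hrs.

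Mal and Opalin, both encoding membrane proteins of mature myelin, rose unevenly between preparations. Mal stood at 6.48, 9.06 and 9.84 at 96 hrs, against 5.01, 5.20 and 5.19 at 48 hrs, a change of 3.33 (SE 0.811, adjusted p = 0.0124). Opalin stood at 5.14, 7.67 and 9.19 at 96 hrs, against 4.66, 4.59 and 4.58 at 48 hrs, a change of 2.72 (SE 0.708, adjusted p = 0.0185). In both genes preparation 1 moved least, and both calls were lost without the array of preparation 2 or of preparation 3 at either time, with adjusted p up to 0.0569 for Mal and 0.0974 for Opalin. Pllp, which encodes the myelin raft protein plasmolipin, rose by 1.74 (adjusted p = 0.000689), and Pmp2, a fatty acid binding protein of myelin, by 1.92 (adjusted p = 0.013, up to 0.0675 without the preparation 2 array at either time or the preparation 1 array at 48 hrs). The number of myelin protein genes that rose was 4 to 7 with 1 quetiapine array left out and 2 without preparation 2.

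The early myelin genes were near the top of the array's range at both times. Mbp, the basic protein of compact myelin, stood at 14.39, 14.25 and 14.23 at 96 hrs, against 14.00, 14.12 and 14.28 at 48 hrs, which overlap. Its change was 0.16 (95% CI 0.02 to 0.30, adjusted p = 0.131). Cnp, an enzyme that early oligodendrocytes make, stood at 14.02, 14.03 and 14.02 at 96 hrs, against 13.98, 14.05 and 14.02 at 48 hrs, a change of 0.01 (95% CI −0.10 to 0.11). Both genes lay close to the highest value of any probe set, and whether the scale limits their changes was not tested.

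Among 25 genes of mature oligodendrocytes outside the myelin list, 15 rose and 1 fell, with a median change of 0.73, against 0.14 in control. The counts were 16 rising and 1 falling with T3 plus quetiapine, 15 rising with T3 and 1 rising in control. Gpr37, which encodes an orphan receptor of myelinating cells, stood at 11.08, 11.42 and 11.83 at 96 hrs, against 6.65, 6.67 and 8.79 at 48 hrs. It rose by 4.07 (SE 0.366, adjusted p = 9.56e-07), or 16.8-fold, and by 1.96 in control. Preparation 3 was the highest at both times.

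Cdc42ep2, an effector of the small GTPase CDC42, stood at 10.38, 10.80 and 11.17 at 96 hrs, against 6.37, 6.83 and 8.26 at 48 hrs, and rose by 3.63 (SE 0.311, adjusted p = 5.79e-07). Ermn, which encodes the actin binding protein ermin, stood at 6.91, 8.29 and 8.82 at 96 hrs, against 4.60, 4.29 and 4.62 at 48 hrs, and rose by 3.50 (SE 0.487, adjusted p = 0.000135). Both genes are among the greatest rises, which were chosen for no overlap between the times. Ppp1r14a, an inhibitor of myosin phosphatase, rose by 3.85, Plekhh1 by 3.36, the unconventional myosin Myo1d by 3.21 and the tubulin polymerization promoting family member Tppp3 by 2.40.

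Car2, carbonic anhydrase II, stood at 8.14, 9.50 and 10.43 at 96 hrs, against 6.65, 6.84 and 6.75 at 48 hrs, a change of 2.61 (SE 0.348, adjusted p = 9.05e-05). Aspa, which releases acetate from N-acetylaspartate, rose by 2.37 and the secreted protease Klk6 by 2.26. The one gene of this list that fell was Itpr2, an IP3 receptor of newly formed oligodendrocytes, by 0.59 (adjusted p = 0.000409), which is close to the fold limit and was below it without the preparation 2 array at either time. Without preparation 2, the list had 7 called rises.

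Of 14 lineage transcription factors, 2 rose and none fell, and the median change was 0.02. Zfp536, which encodes a zinc finger protein, stood at 10.11, 10.82 and 11.06 at 96 hrs, against 7.45, 7.64 and 8.51 at 48 hrs, and rose by 2.79 (SE 0.210, adjusted p = 1.46e-07), or 6.93-fold. Nkx6-2, a homeodomain factor of myelinating oligodendrocytes, stood at 10.72, 10.50 and 10.69 at 96 hrs, against 8.63, 8.75 and 9.35 at 48 hrs, and rose by 1.73 (SE 0.164, adjusted p = 1.77e-06). In both genes every later array exceeded every earlier one. Zfp488, a zinc finger factor of the lineage, had a change of −0.58 (adjusted p = 0.0102), just under the fold limit, and was called lower without the preparation 1 array at either time, the preparation 3 array at 96 hrs or preparation 1, and with centred arrays. Other regulators that specify the lineage were not called. Myrf, which drives myelin genes, changed by 0.10 (95% CI −0.08 to 0.28), Olig2 by 0.16 (95% CI −0.05 to 0.38) and Sox10 by −0.19 (95% CI −0.33 to −0.05).

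Genes of OPCs were mostly not called. Of 19, 17 had a change below 0 but only Tnr was called, and the median was −0.26, against −0.11 in control. Tnr, which encodes the matrix protein tenascin-R, stood at 9.91, 10.50 and 10.31 at 96 hrs, against 11.17, 10.95 and 10.77 at 48 hrs. It fell by 0.72 (SE 0.164, adjusted p = 0.00796) with no overlap, but without the preparation 1 array at 96 hrs its fold was under the limit. Pdgfra, the receptor for the mitogen of the expansion medium, stood at 12.61, 11.84 and 11.57 at 96 hrs, against 12.49, 12.18 and 12.26 at 48 hrs. It overlapped between the times and its change was −0.30 (95% CI −0.66 to 0.06, adjusted p = 0.293). Cspg4, the NG2 proteoglycan, had a change of −0.20 (95% CI −0.60 to 0.20). With T3 plus quetiapine 9 genes of the list fell, and with T3 2. None of the 19 was called in the difference of changes between quetiapine and either of these treatments.

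**Figure D2:**
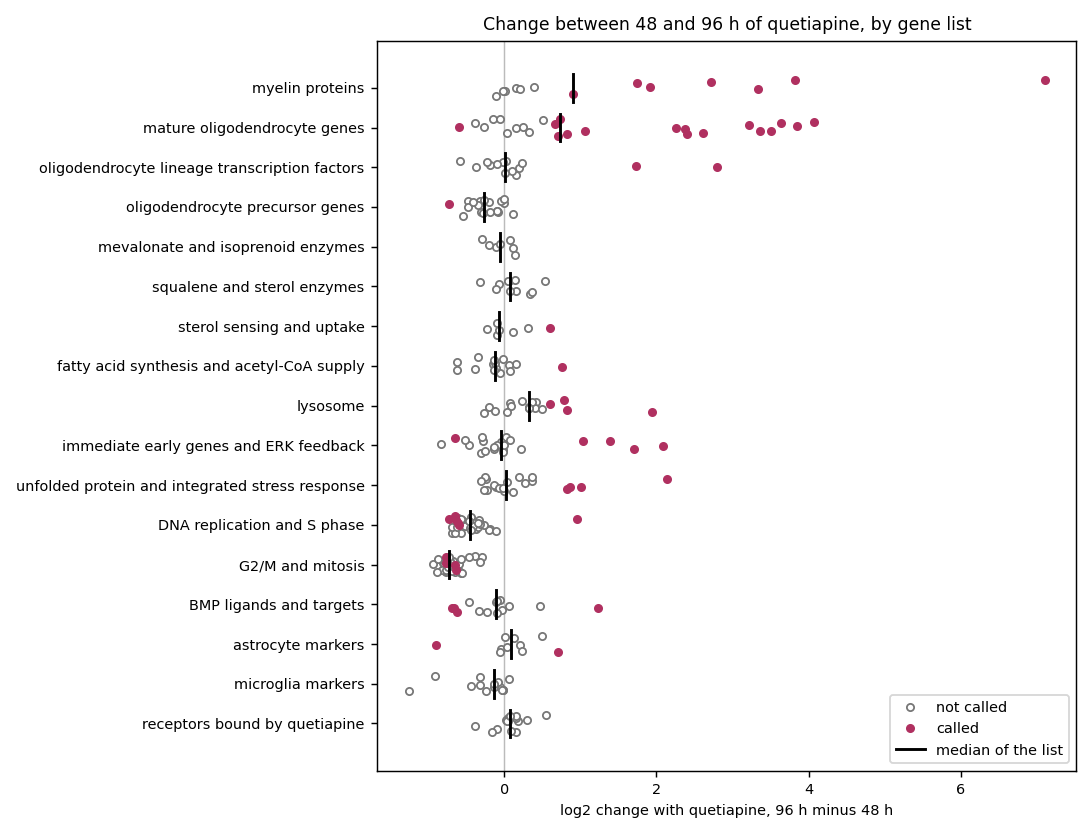
Log2 change of each list member with quetiapine, 96 hrs minus 48 hrs, where each point is a gene, filled points passed the call limits and the black line is the median of the list. The medians were 0.91 for myelin proteins and −0.72 for the G2/M and mitosis genes, all of which lie left of 0.

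All 38 measured genes of G2/M and mitosis had a change below 0, with a median of −0.72, and 4 were called: Birc5, Smc2, Ncapd2 and Aurka. The median was −1.39 with T3 plus quetiapine, where 35 fell, −1.0 with T3, where 31 fell, and −0.41 in control, where none was called. None of the 38 genes was called in the difference of changes between quetiapine and T3, or between quetiapine and T3 plus quetiapine. In each of these differences 36 of the 38 values were above 0. Preparations differed in size, since the median change of the list was −0.16 in preparation 1, −1.30 in preparation 2 and −0.68 in preparation 3. The count of called falls was 35 without preparation 1, 0 without preparation 2 and 1 without preparation 3, and ranged from 0 to 5 with 1 quetiapine array left out. Mki67, the antigen Ki-67 of cycling cells, stood at 9.01, 7.86 and 8.90 at 96 hrs, against 9.17, 9.23 and 9.75 at 48 hrs. The later arrays were all lower than the earlier ones, but the change of −0.79 had an adjusted p of 0.196.

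The 34 genes of DNA replication and S phase had a median change of −0.45, against −0.31 in control, with 33 below 0. Called falls numbered 5, and 24 with T3 plus quetiapine, 22 with T3 and 0 in control. No gene of this list was called in the difference of changes from T3 or from T3 plus quetiapine, with 32 of the 34 values above 0 in each. E2f2, an E2F transcription factor of the S phase programme, stood at 6.38, 5.71 and 5.92 at 96 hrs, against 6.76, 6.53 and 6.91 at 48 hrs, and fell by 0.73 (SE 0.143, adjusted p = 0.0029). The other 4 were Pola1, Dut, Prim1 and Mcm5, each lost without at least 1 array. The count of falls was 8 without the preparation 1 array at 48 hrs, 5 without that of preparation 3 at 96 hrs and 1 or 2 without any other quetiapine array. It was 11 without preparation 1, 0 without preparation 2 and 1 without preparation 3.

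Fen1, which encodes a flap endonuclease of replication and base excision repair, moved the other way. It stood at 9.37, 9.56 and 10.05 at 96 hrs, against 8.54, 8.59 and 9.0 at 48 hrs, and rose by 0.95 (SE 0.139, adjusted p = 0.000234). Cdkn1a, encoding the cyclin-dependent kinase inhibitor p21, was the only one of 8 such inhibitors called. It stood at 8.55, 9.50 and 9.79 at 96 hrs, against 8.36, 8.26 and 8.50 at 48 hrs, and rose by 0.91 (SE 0.157, adjusted p = 0.00106). The values of preparation 1 differed least. Among 13 genes of the G1 phase, Ccng1, which encodes cyclin G1, rose by 0.83 (adjusted p = 5.79e-07) and none fell.

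Sterol synthesis, which supplies the cholesterol of myelin, showed no called change between the times. None of 7 mevalonate and isoprenoid enzymes and none of 11 enzymes of the squalene and sterol steps was called, with medians of −0.06 and 0.08. At an adjusted p under 0.05 without a fold limit, Sc5d, a late sterol desaturase, was the only one, with a change of 0.37 (adjusted p = 0.0168). Fdft1, squalene synthase, stood at 11.66, 11.28 and 11.52 at 96 hrs, against 11.32, 11.48 and 11.49 at 48 hrs, a change of 0.06 (95% CI −0.21 to 0.32). Sqle, squalene epoxidase, changed by 0.14 (95% CI −0.05 to 0.32) and Cyp51, lanosterol demethylase, by 0.15 (95% CI −0.09 to 0.39). The mean of the squalene and sterol list lay between 11.4 and 11.8 at 96 hrs and 11.4 and 11.6 at 48 hrs in the quetiapine arrays, against 10.1 to 10.6 at 96 hrs and 10.5 to 10.8 at 48 hrs in control arrays. The quetiapine arrays were thus above the control arrays at both times, a difference that was not tested here. With T3 plus quetiapine 3 enzymes of the squalene and sterol steps rose, with T3 1 rose, and in control 1 fell. None of the 11 was called in the difference of changes between quetiapine and any of these treatments.

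Other lipid genes were called singly, where 2.94% of all genes were higher and 0.872% lower, and these calls are not read as results about their lists. Elovl1, which elongates very long chain fatty acids, stood at 11.89, 11.79 and 11.83 at 96 hrs, against 10.96, 10.92 and 11.33 at 48 hrs, and rose by 0.76 (SE 0.140, adjusted p = 0.00172). It was the only one of 15 fatty acid synthesis genes called. Degs1, a ceramide desaturase, rose by 0.64 as the only one of 11 genes of galactolipid and sphingolipid synthesis, Acadvl, of mitochondrial fatty acid oxidation, by 0.60 as the only one of 16, and Npc2, a lysosomal cholesterol carrier, by 0.60 as the only one of 7 sterol sensing and uptake genes. These 3 calls were each lost without at least 1 quetiapine array, Degs1 and Acadvl on the fold limit and Npc2 also on the adjusted p, which reached 0.11. None of 8 cholesterol efflux and LXR target genes was called.

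Of 18 lysosome genes, 4 rose and none fell, with 15 changes above 0 and a median of 0.32, against 0.06 in control. The number that rose was 2 without preparation 2, and 2 with the probe sets of each gene averaged. Ctsl, encoding the protease cathepsin L, stood at 12.47, 12.57 and 12.55 at 96 hrs, against 10.02, 10.44 and 11.31 at 48 hrs, and rose by 1.94 (SE 0.246, adjusted p = 5.07e-05). Ctsa, encoding the protective protein cathepsin A, rose by 0.82 and Lamp2, a membrane protein of the lysosome, by 0.79 (adjusted p = 4.48e-05 for Ctsa, 2.34e-07 for Lamp2). Lamp1 rose by 0.60 and fell below the fold limit without the preparation 1 array at 96 hrs or the preparation 2 array at 48 hrs.

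Immediate early genes, which cells switch on within minutes of a stimulus, were listed together with feedback genes of the MAP kinase ERK. This list split. Of 23, 4 rose and 1 fell, with a median of −0.04. Dusp1, a phosphatase that turns off MAP kinases, stood at 7.35, 9.16 and 9.29 at 96 hrs, against 6.43, 6.24 and 6.89 at 48 hrs, and rose by 2.08 (SE 0.382, adjusted p = 0.00174). Fos stood at 8.46, 9.54 and 9.75 at 96 hrs, against 7.11, 7.45 and 8.10 at 48 hrs, and rose by 1.70 (SE 0.267, adjusted p = 0.000465). Both were higher in all 3 later arrays. The AP-1 partners Jund and Jun rose by 1.03 (adjusted p = 2.05e-06) and 1.39 (adjusted p = 0.00802, up to 0.0643 without the preparation 1 array at either time). Egr2 fell by 0.65 (adjusted p = 0.0487, up to 0.303 with 1 array left out, lost without either preparation 1 array or the preparation 2 array at 48 hrs).

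In the stress response, 4 of 20 genes rose and none fell, with 3 higher in control. Atf3, a stress induced transcription factor, stood at 5.95, 7.70 and 7.89 at 96 hrs, against 4.77, 5.14 and 5.22 at 48 hrs, and rose by 2.14 (SE 0.307, adjusted p = 0.00018), against 1.20 in control. Ddit3, encoding CHOP, rose by 0.83 (adjusted p = 4.26e-06). Chac1, which degrades glutathione, rose by 1.01 and the cystine transporter Slc7a11 by 0.86, against 1.71 in control, and both were lost without the preparation 2 array at either time, Chac1 also without that of preparation 3, with adjusted p up to 0.109 for Chac1 and 0.0735 for Slc7a11.

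Signals that hold back or shape differentiation gave few calls. Over all genes 2.94% were higher and 0.872% lower, so 1 call in a list of this size is not read as a result about the list. Among 15 Notch, Hes and Id genes, only Jag1, a Notch ligand, was called. It stood at 8.17, 7.66 and 7.72 at 96 hrs, against 9.19, 8.46 and 8.11 at 48 hrs, and fell by 0.73 (SE 0.156, adjusted p = 0.00523), although the values overlapped because preparation 1 was high at both times. Among 14 Wnt genes, Fzd1, a Wnt receptor, stood at 8.42, 8.29 and 8.09 at 96 hrs, against 6.60, 6.71 and 7.61 at 48 hrs, and rose by 1.29 (SE 0.207, adjusted p = 0.000541). Among 14 BMP genes, the ligand Bmp6 rose by 1.23 and the ligands Bmp4 and Bmp2 and the decoy receptor Bambi fell by 0.69, 0.66 and 0.62. All 4 BMP calls were lost without the preparation 2 array at 48 hrs, and over the single arrays their adjusted p reached 0.119 for Bmp6, 0.0716 for Bmp4, 0.0965 for Bmp2 and 0.28 for Bambi. Of 12 genes of the IGF axis, Igf1r, the IGF-1 receptor, fell by 0.67 (adjusted p = 0.0151, up to 0.0805 without the preparation 1 array at either time).

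None of 15 genes for receptors that quetiapine binds was called. The mean of this list lay between 5.19 and 5.26 at 96 hrs and between 5.05 and 5.25 at 48 hrs. These means are below the array median, and whether the genes were expressed was not tested. The muscarinic receptor gene Chrm3 had a change of −0.39 (adjusted p = 0.00319), under the fold limit, and the adrenergic receptor gene Adra2a one of 0.55 (adjusted p = 0.224). Of 12 genes for thyroid hormone receptors, transport and response, Klf9, a transcription factor that T3 induces, rose by 0.79 (adjusted p = 0.00274), against 0.68 in control. This call was lost without preparation 2 or preparation 3 and without the block on replicate number. It was also lost with only the arrays compared in the fit, and with the probe sets of each gene averaged. No gene of the 16 for interferon response and antigen presentation was called, where 6 rose in control. The median change was 0.10 with quetiapine and 0.60 in control. With T3 none was called, and with T3 plus quetiapine 1 fell. None of the 16 was called in the difference of changes between quetiapine and control, where 3 values were above 0.

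Beyond the lists, the greatest rises included Kndc1, Pls1 and Septin4. Pls1, encoding the actin bundling protein plastin 1, stood at 8.61, 10.04 and 10.39 at 96 hrs, against 4.73, 5.02 and 5.75 at 48 hrs, and rose by 4.51 (SE 0.251, adjusted p = 1.87e-08). Kndc1, a Ras exchange factor described in neuronal dendrites, rose by 4.88 (SE 0.673), with 48 hr values that ran from 3.95 in preparation 1 to 8.09 in preparation 3. Septin4, a filament forming GTPase, rose by 4.24 (SE 0.480), Deptor, an inhibitor of mTOR, by 3.78 (SE 0.305), and Ptgds, prostaglandin D synthase of mature oligodendrocytes, by 3.52. Rcan2, a regulator of calcineurin, rose by 3.60, the carbonic anhydrase gene Car14 by 3.40, Anxa2, a calcium dependent membrane binding protein, by 3.39 and Ndrg1 by 3.37. In each, the 3 later arrays exceeded the 3 earlier ones, which the rule for naming them required.

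Among called genes whose values did not overlap between the times, Greb1l had the greatest fall. It stood at 7.06, 6.98 and 7.13 at 96 hrs, against 8.48, 8.37 and 8.06 at 48 hrs, and fell by 1.25 (SE 0.167, adjusted p = 9.75e-05). Reln, which encodes the secreted guidance protein reelin, stood at 6.82, 6.62 and 6.41 at 96 hrs, against 8.64, 7.96 and 6.94 at 48 hrs, and fell by 1.23 (SE 0.212, adjusted p = 0.00107). The reelin values were most different in preparation 1. Fbn2, encoding the matrix protein fibrillin-2, fell by 1.13 and Mitf, a transcription factor known from melanocytes, by 0.91. The others among the 15 greatest such falls were Pakap, Snx18, Abcg3l1, Chsy3, Zdhhc2, Hs6st1, Sytl3, Kcnj12, Cdh13, Tmem108 and Dock4, which fell by 0.88 to 1.16. Of these, Abcg3l1, Chsy3 and Cdh13 lost their call without at least 1 quetiapine array.

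Markers of other cell types were also measured. The list means of microglia, vascular cell and fibroblast, and Schwann cell genes lay below the array median. With no detection call, the presence of those cells is not shown. The defining astrocyte markers were high, with Gfap at a mean of 13.09 ± 0.38 at 96 hrs and 13.13 ± 0.33 at 48 hrs (SD, n = 3) and Aqp4 at 12.08 and 11.86. The mean of the 10 astrocyte genes lay between 9.77 and 10.5 at 96 hrs and 9.79 and 10.2 at 48 hrs, with 1 called higher, Gja1 (0.71), and 1 lower, Aldh1l1 (−0.90), and the Gja1 call was lost on the fold limit without the preparation 2 array at 96 hrs. The Aldh1l1 call was lost without any 1 of 4 arrays, those of preparations 1 and 3 at 96 hrs and 1 and 2 at 48 hrs (adjusted p up to 0.0928). For 14 microglia genes these ranges were 5.37 to 5.54 at 96 hrs and 5.51 to 6.01 at 48 hrs, and 13 had a change below 0, among them Fcer1g (−1.25, adjusted p = 0.112) and Tyrobp (−0.91, adjusted p = 0.12), with none called. For 11 neuron genes they were 7.50 to 7.78 at 96 hrs and 7.62 to 7.82 at 48 hrs, with none called. For 13 vascular and fibroblast genes they were 5.0 to 5.02 at 96 hrs and 4.94 to 5.16 at 48 hrs, with Tagln, a smooth muscle gene whose protein binds actin, called lower (−0.82). Of 5 Schwann cell genes, Ngfr, the p75 neurotrophin receptor, rose by 1.61 (adjusted p = 0.0403). The Tagln call was lost without either preparation 1 array or the preparation 2 array at 48 hrs (adjusted p up to 0.224). The Ngfr call was lost without any 1 of the quetiapine arrays except that of preparation 1 at 96 hrs (adjusted p up to 0.212), and its probe set was not tested with the filter on low values. The part of these cells in the changes above was not tested.

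To ask where quetiapine cultures changed with time unlike vehicle cultures, the difference between the 2 changes was tested. It was called higher for 251 probe sets (0.809%) and lower for 18 (0.058%), and higher for 157 genes (1.1%). The count was 2 without preparation 2 and 428 without preparation 1. With a single array left out it was 139 without the quetiapine array of preparation 2 at 48 hrs, 137 to 164 without any 1 of the control arrays of preparations 2 and 3 at 96 hrs and 1 and 2 at 48 hrs, 404 without that of preparation 3 at 48 hrs, and 181 to 353 without any other. Myelin and mature oligodendrocyte genes were among those called, with 2 myelin genes, Mog and Mag, and 6 mature oligodendrocyte genes, Cdc42ep2, Ppp1r14a, Plekhh1, Myo1d, Klk6 and Tspan2. Cdc42ep2 rose by 2.83 more with quetiapine than in control (SE 0.440, adjusted p = 0.00347). Its 96 hr mean was 10.78 ± 0.40 with quetiapine and 7.66 ± 0.0073 in control, and its 48 hr mean was 7.15 ± 0.98 with quetiapine and 6.86 ± 0.28 in control (SD, n = 3). Mog rose by 2.46 more (adjusted p = 0.0191), and this call was lost without either preparation 2 quetiapine array, the preparation 3 control array at 96 hrs or the preparation 1 control array at 48 hrs, with adjusted p up to 0.0791. Mag rose by 0.95 more (adjusted p = 0.0244, up to 0.0954), lost without 6 of the 12 arrays taken singly.

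**Figure D3:**
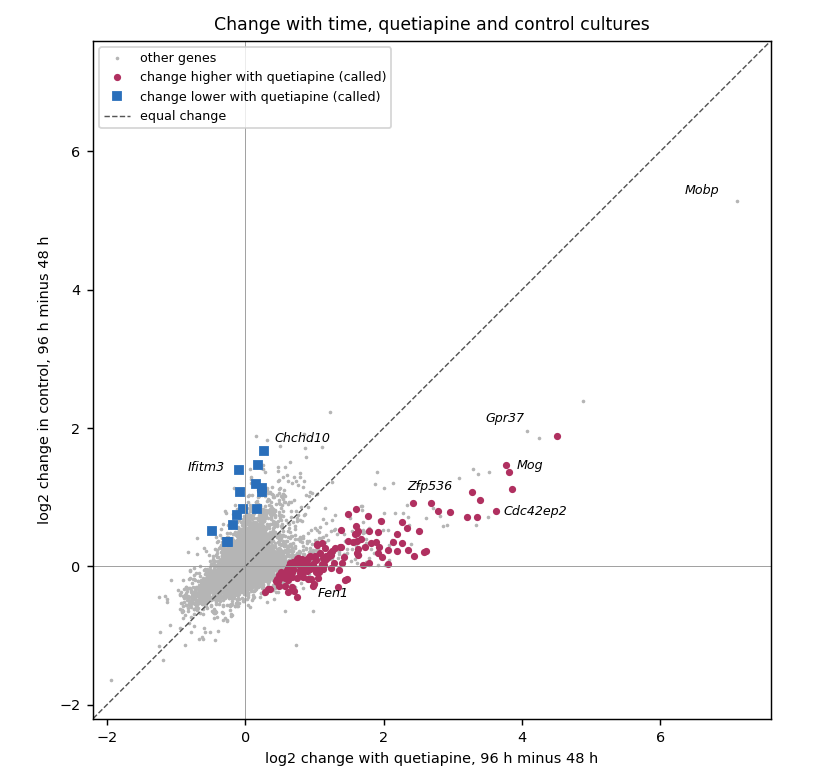
Log2 change of each gene from 48 to 96 hrs with quetiapine (horizontal) and in control (vertical), with the genes whose changes differed past the limits marked and a dashed line of equal change. Cdc42ep2 changed by 3.63 with quetiapine and 0.80 in control, and Ifitm3 by −0.09 with quetiapine and 1.39 in control.

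Both lineage factors that rose were called here too, Zfp536 with a difference of 1.99 (95% CI 1.37 to 2.61, adjusted p = 0.00242) and Nkx6-2 with 1.45 (95% CI 0.96 to 1.94, adjusted p = 0.0041). Fen1 differed by 1.13 (adjusted p = 0.00635), with a change of −0.19 in control. Pls1 differed by 2.62 (adjusted p = 0.00115). None of the 38 mitosis genes, whose changes were below 0 in both cultures, differed past the limits. On the other side, Chchd10, a mitochondrial protein gene, changed by 0.27 with quetiapine and 1.67 in control, and the interferon induced gene Ifitm3 by −0.09 with quetiapine and 1.39 in control. Their differences of −1.40 (adjusted p = 0.0225) and −1.48 (adjusted p = 0.0499) were lost without 7 and 9 of the 12 quetiapine and control arrays taken singly, with adjusted p up to 0.0895 and 0.158.

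Cyp3a23-3a1, a cytochrome P450 gene of the drug metabolizing CYP3A family, was called against each of the other treatments. It stood at 6.25, 6.45 and 6.47 at 96 hrs, against 4.20, 4.46 and 4.32 at 48 hrs, and rose by 2.06 (SE 0.147, adjusted p = 7.74e-08). The 48 hr values are below the array median and the 96 hr values only near it. The groups stood far apart with little spread. The change was 1.05 with T3 plus quetiapine, 0.37 with T3 and 0.04 in control, and the quetiapine change exceeded that of control by 2.02 (adjusted p = 8.67e-05), that of T3 by 1.69 (adjusted p = 0.00413) and that of T3 plus quetiapine by 1.01 (adjusted p = 0.0337). The last of these was lost without any 1 of 8 arrays, with adjusted p up to 0.11, and the call against T3 was lost without preparation 2. The family has closely related members whose transcripts a probe set may share.

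**Figure D4:**
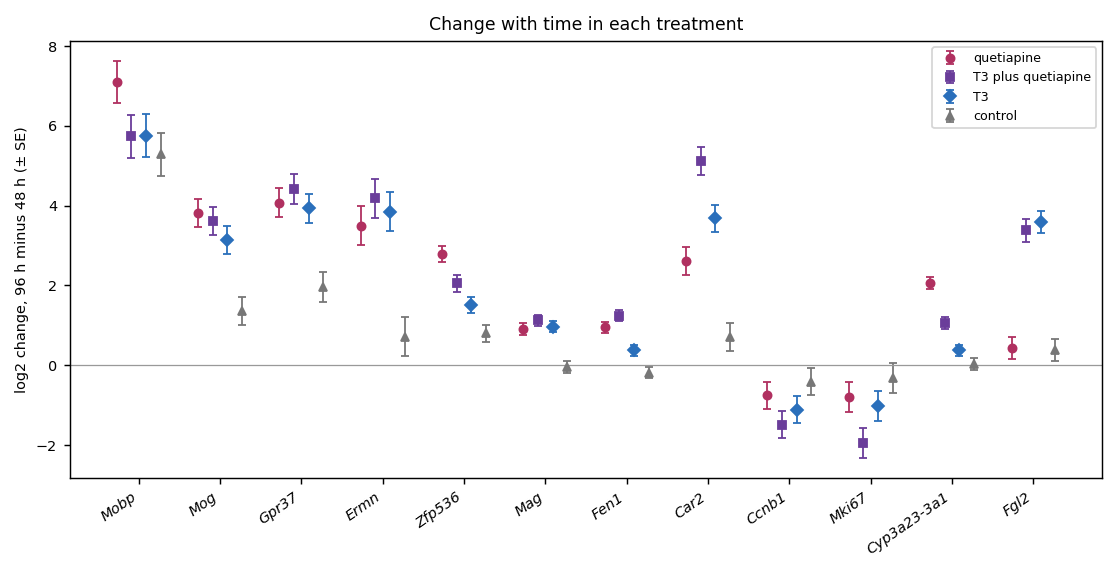
Log2 change of selected genes from 48 to 96 hrs with quetiapine, T3 plus quetiapine, T3 and control, with the standard error of the limma fit (n = 3 arrays at each time). Cyp3a23-3a1 changed by 2.06 with quetiapine, 1.05 with T3 plus quetiapine, 0.37 with T3 and 0.04 in control.

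Against T3, the change with quetiapine was called higher for 2 probe sets (0.00644%) and lower for 4 (0.0129%), a count that was 39 without preparation 1, 0 without preparation 2, 12 without preparation 3 and 80 without the T3 array of preparation 1 at 96 hrs, with 2 to 9 without any other single array. Stard13, which encodes a protein with a START lipid binding domain, rose with quetiapine, at 8.19, 7.75 and 8.05 at 96 hrs against 6.88, 6.31 and 7.28 at 48 hrs, a change of 1.17 (SE 0.127, adjusted p = 8.18e-06). With T3 it changed by 0.03 and stood at 8.94 at 96 hrs and 8.91 at 48 hrs, so that the quetiapine cultures at both times were below the T3 cultures. Its difference of 1.14 (adjusted p = 0.0287) was lost without any 1 of 9 arrays, with adjusted p up to 0.151. Fgl2, which encodes a fibrinogen-like protein, stood at 3.37, 3.64 and 4.22 at 96 hrs and 3.15, 3.33 and 3.45 at 48 hrs with quetiapine, which overlap, a change of 0.43. With T3 the change was 3.59, and the difference was −3.16 (adjusted p = 0.00413).

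Against T3 plus quetiapine, 40 probe sets (0.129%) were called higher and 90 (0.29%) lower, in total 130. This count was 699 without preparation 1, 2 without preparation 2 and 56 without preparation 3. With a single array left out it was 968 without the array of both compounds of preparation 1 at 96 hrs, 348 without the quetiapine array of preparation 1 at 96 hrs, 262 without the array of both compounds of preparation 3 at 48 hrs, and 42 to 92 without any other. These comparisons share the quetiapine arrays with those above. Car2 rose by 2.61 with quetiapine and 5.12 with both compounds by the probe set of highest mean, a difference of −2.51 (adjusted p = 0.0277, up to 0.108), lost without any 1 of 6 arrays. Cdkn1a rose less with quetiapine by 1.34 (adjusted p = 0.00957). The glutamate receptor gene Grm3 changed by −0.14 with quetiapine and 4.16 with both, and Cyp26b1, which degrades retinoic acid, by −0.12 with quetiapine and 3.45 with both. Their differences were −4.30 (adjusted p = 0.00322) and −3.57 (adjusted p = 0.000192). Egfr, the EGF receptor gene, changed by 0.84 with quetiapine, −0.48 with both and 1.24 in control, a difference from both compounds of 1.32 (adjusted p = 0.0471) that was lost without any 1 of 9 arrays, with adjusted p up to 0.162.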

How the data were processed

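RNA of rat OPC cultures was measured on 24 one-colour Affymetrix rat arrays, 3 in each of 8 groups, on 31099 probe sets. The authors deposited log2 values from RMA, which corrects the background, applies quantile normalization and gives 1 value per probe set. No RMA version is given in the sources used, and raw signals were not analysed here. Every column of the deposited table was matched to a sample. After 57 control probe sets were left out, 31042 were tested. Gene symbols came from the platform annotation, which can be old: 20826 probe sets had 1 symbol, 436 several and 9780 none, and only those with 1 symbol were named. No sequences, coordinates or day 0 cultures were used here.

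With limma 3.58.1 in R 4.3.3, a linear model with 8 group means and the replicate number as a block was fitted to the 24 arrays (14 residual degrees of freedom, empirical Bayes prior of 3.99), with Benjamini-Hochberg adjustment of p over every probe set tested. The limits, adjusted p under 0.05 and fold over 1.5, were taken from the paper. Group means and standard deviations are given with n = 3.

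The series design states that each of 3 biological replicates gave a sample of every condition at both times, so arrays were paired by that number. Deviations from group means correlated between the 96 and 48 hr quetiapine arrays of the same number with r of 0.24, 0.338 and 0.235, and of different numbers with −0.261 to 0.042. P values rest on the spread left after group means and steady differences between preparations are taken out. That spread is pooled over the 8 groups.

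The 30 gene lists held 497 genes, of which 451 had a probe set with 1 symbol; the others are not reported here. A gene stood in a list by its probe set with the highest mean. The genes named in the text were set genes of the study and Hprt1, up to 15 rises and 15 falls with the greatest change and no overlap between the times, up to 5 each way in each difference of changes, and up to 4 called members of each list, or the 2 with the greatest change. Other list members named were chosen after their values were seen. The members and lists were chosen with earlier results of these data known. Alternatives covered the block, the arrays in the fit, centring, a filter on low values, the variance model, the fold limit and left-out arrays. For the list counts, the mean of all probe sets of a gene was a further alternative. Leaving out control, T3 and T3 plus quetiapine arrays was added after seeing the data.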

Additional observations from a re-analysis of the deposited data

Results flagged for a closer look

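The following genes changed with time differently in quetiapine cultures and in another treatment by limma's test of the difference itself (adjusted p under 0.05 and fold over 1.5). Each value is the log2 change with quetiapine minus the log2 change with the other treatment.

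Against control, the change was greater with quetiapine for Cdc42ep2 (2.83), Ppp1r14a (2.73), Plekhh1 (2.64), Pls1 (2.62), Rcan2 (2.56), Mog (2.46), Anxa2 (2.43), Deptor (2.31), Cyp3a23-3a1 (2.02), Zfp536 (1.99), Nkx6-2 (1.45), Fen1 (1.13), Stard13 (1.02), Jund (0.73) and Ctsa (0.72). It was smaller for Ifitm3 (−1.48), Chchd10 (−1.40), the phospholipid transfer protein gene Pltp (−1.27), LOC100910973 (−1.15) and Cd24 (−1.04). These 5 were each lost without at least 7 of the 12 quetiapine and control arrays taken singly. The greater changes were limited too. Without preparation 2, 2 probe sets were called for this difference, so at most 2 of all the calls listed here remained. The count was 30 without the replicate block.

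Against T3, it was greater for Cyp3a23-3a1 (1.69) and Stard13 (1.14) and smaller for Fgl2 (−3.16), the cytokine receptor gene Il6st (−1.04) and the transporter gene Slco3a1 (−0.93). The calls of Stard13, Il6st and Slco3a1 were lost without 1 of several arrays, with adjusted p up to 0.161. All calls against T3 were lost without preparation 2.

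Against T3 plus quetiapine, it was greater for Galnt14 (1.76), Igdcc4 (1.37), Egfr (1.32), Lxn (1.18), Stard13 (1.12) and Cyp3a23-3a1 (1.01). Galnt14 itself changed by −0.17 with quetiapine and −1.93 with both compounds. It was smaller for Grm3 (−4.30), Cyp26b1 (−3.57), Fgl2 (−2.95), Car2 by a probe set other than that of highest mean (−2.85), Tmem178a (−2.61), Slco3a1 (−1.52) and Cdkn1a (−1.34). Only 2 probe sets were called for this difference without preparation 2.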

How the results depend on the processing

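The replicate block raised the number of calls. Without the replicate block, 487 probe sets were called for 96 against 48 hrs with quetiapine, in place of 919, and 30, 1 and 20 for the differences from control, T3 and T3 plus quetiapine, in place of 269, 6 and 130. With the replicate number as a random block, the difference from T3 plus quetiapine had 70 calls. With only the arrays compared and the block, the counts were 362 for quetiapine, 2 for the difference from T3 and 9 for that from T3 plus quetiapine. Without a fold limit, 3497 were called with quetiapine, and with a fold over 2 the count was 369, with 140 for the difference from control and 51 for that from T3 plus quetiapine. With preparations or single arrays left out, counts ran between 258 and 1211 for quetiapine, 2 and 428 for the difference from control, 0 and 80 from T3, and 2 and 968 from T3 plus quetiapine. The cause was not tested. Centring, the filter on low values and the variance model kept all 4 counts within 1.5 times. With the probe sets of each gene averaged, the list members Itpr2, Bmp6, Degs1, Igf1r, Egr2 and Klf9 were not called. No called value of a named gene changed direction. Small changes without a call were not judged in this way. Of 153 values, 91 lost their call without preparation 2, 63 without the replicate block and 65 with only the arrays compared. The number of arrays limits the precision.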

Other observations

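Some genes outside the lists had clear changes with time and were chosen after their values were seen. Prox1, a homeobox factor, stood at 9.13, 9.29 and 9.59 in quetiapine cultures at 96 hrs, against 7.23, 7.26 and 7.75 at 48 hrs. It rose by 1.93 (SE 0.140, adjusted p = 9.58e-08), and by 1.73 more than in control (adjusted p = 0.000221). Cdc42ep1, a further CDC42 effector, stood at 8.86, 9.88 and 9.97 at 96 hrs, against 6.81, 6.98 and 6.86 at 48 hrs. It rose by 2.68, and by 1.77 more than in control (adjusted p = 0.000866).

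Genes of signalling and of organelles were among the other rises. Dusp10, a phosphatase of stress activated MAP kinases, stood at 6.91, 8.46 and 8.93 at 96 hrs, against 4.90, 5.43 and 6.14 at 48 hrs, and rose by 2.61, which was 2.38 more than in control (adjusted p = 0.0082). Hhip, a decoy for hedgehog ligands, stood at 7.38, 8.39 and 8.30 at 96 hrs, against 5.51, 5.52 and 5.30 at 48 hrs, and rose by 2.58, a call lost without preparation 2. Pex5l and the peroxisome gene Pex11a rose by 2.44 and 2.19, the sorting receptor gene Sort1 by 1.61 and the lysosome membrane gene Scarb2 by 1.49. Col9a3, which encodes a collagen IX chain, rose by 1.44 and changed by −0.19 in control.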
